A study of Mus musculus with 2 samples.

Results

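The kinase cascade that carries signals from the RAS GTPases to ERK was described here through 7 genes: the GTPase genes Hras and Nras, the RAF kinase genes Araf and Braf, the MEK kinase genes Map2k1 and Map2k2, and the ERK kinase gene Mapk3. A gene was measured if at least 1 probe set of the array was named to it alone. Nras, Araf, Braf, Map2k1 and Map2k2 met this rule, with 6 probe sets in all, so that 5 of the 7 genes were measured, among 10313 genes in the table. Hras and Mapk3 had no such probe set and were not measured, which left the ERK tier without a value. The remaining RAS, RAF and ERK paralogues of these tiers were also not analysed here.

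Gene expression was compared between mouse embryonic stem cells that overexpressed lincU, a long noncoding RNA, and control cells, with 1 Affymetrix 3' expression array for each. Both cultures were of the 46C line, kept on a feeder layer in medium with 15% serum and LIF, the cytokine leukaemia inhibitory factor, at 1000 U/ml. The feeder layer was taken away before RNA was extracted. The labels give neither the vector nor the number of clones behind the overexpressing culture. The study asks how lincU acts on naive pluripotency and on ERK activity, and the cascade genes are where the transcript level of the ERK route itself can be read.

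RAS proteins are small GTPases at the inner face of the plasma membrane that are switched on below growth factor receptors. Active RAS recruits RAF kinases, RAF phosphorylates the dual-specificity kinases MEK1 and MEK2, and these phosphorylate ERK. In mouse embryonic stem cells, FGF4 made by the cells themselves drives this route, which moves cells out of the naive state, and inhibition of MEK is part of the standard medium for naive culture. Flow through the cascade is set largely by GTP loading and phosphorylation, which an expression array does not measure.

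Every difference below comes from 1 array against 1 array and has no replicate check. A value is the deposited log2 signal of a probe set, and a difference is overexpression minus control. A gene counted as bright if the array with its higher signal was at or above that array's median, 7.96 for the control and 7.90 for the overexpression array. There were 5609 bright genes. A gene with several probe sets is represented by the one of highest mean signal. The only repeated measurement was between different bright probe sets of 1 gene. Their differences varied with an SD of 0.23 over 1732 genes, and this SD holds no variation between cultures. Divided by mean signal into dimmest, middle and brightest groups of about equal size, these genes had SDs of 0.30, 0.22 and 0.17. All 8 measured markers of embryonic stem cells were bright, at log2 signals between 11.51, for Esrrb in control, and 14.85, for Dppa5a in control. Of the 12 measured feeder fibroblast markers 9 were bright, 5 of them higher and 4 lower, no marker was at 0, and their summed linear signal was 6144 in control and 6312 in overexpressing cells. The part of feeder RNA in the values below was not tested, and fewer cells of a type and less RNA per cell cannot be told apart in bulk RNA.

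The measured cascade genes had nearly the same signal on both arrays. Their representative probe sets differed by between -0.22, in Braf, and 0.10, in Map2k1, with a median of 0.04. Nras, Map2k1 and Map2k2 were higher in the overexpressing cells and Araf and Braf lower. That split was 4 higher and 1 lower when the arrays were centred, quantile normalized or corrected for a signal trend, since Araf then changed sign. None of the 5 genes was 2-fold different, where 2.83% of all bright genes were, and none was 1.5-fold different, where 11.3% of all bright genes were. With 5 genes, a count of 0 is near both of these background shares. The median of all bright genes was 0.00, with 50.2% of them higher. The median size of the difference, without its sign, was 0.05 for the 5 genes and 0.19 for all bright genes. The value of 0.05 rests on the brighter Nras probe set, at 0.04, where the mean over both was 0.16. The size also depended on signal. With bright genes divided by mean signal into 5 groups, its median was 0.34 in the dimmest, which held Araf and Braf. It was 0.18 in the group of Map2k2 and 0.16 in that of Nras and Map2k1.

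**Figure D1:**
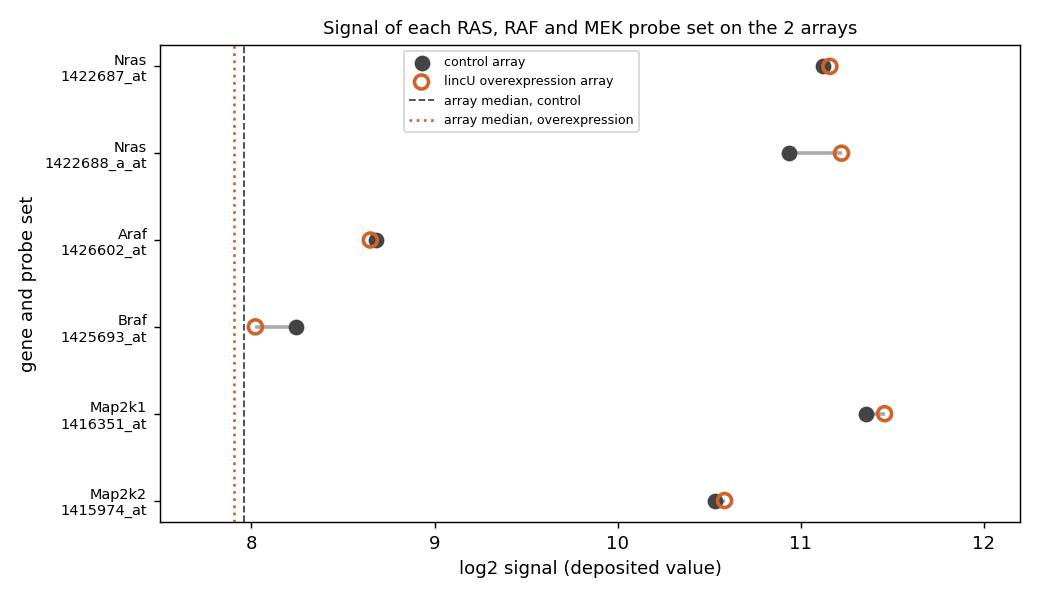
Log2 signal (x axis) of the 6 probe sets of Nras, Araf, Braf, Map2k1 and Map2k2 (y axis) on the control array (filled points) and the lincU overexpression array (open points), 1 array each. The dashed and dotted lines are the medians of the 2 arrays, 7.96 and 7.90; every probe set lies above both, Braf by the smallest margin, and the widest gaps between arrays are those of the second Nras probe set and of Braf.

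The RAS tier was read through Nras, one of the membrane GTPases that start the cascade. Its brighter probe set, 1422687_at, stood at 11.12 in control and 11.16 in overexpressing cells. Both signals were almost the same, a difference of 0.04 or 1.02-fold, and 89.6% of bright genes differed by more. A second probe set of Nras, 1422688_a_at, stood at 10.94 in control and 11.22 in overexpressing cells. It was higher in the overexpressing cells by 0.28, or 1.22-fold, and 34.8% of bright genes differed by more. The name of this probe set marks a type that can bind several transcripts of 1 gene. The probe sets of Nras therefore disagreed on size by 0.25 while both were on the higher side. Among 1265 genes with exactly 2 bright probe sets the median gap was 0.17, and 36.0% of these genes had a wider gap than Nras. The mean over both Nras probe sets was 0.16.

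The RAF tier holds the kinases that bind active RAS, and both of its measured genes had signals less than 1 log2 unit above the array median, in the range where differences varied most between genes. Araf, on 1426602_at, stood at 8.68 in control and 8.65 in overexpressing cells. It was level between the arrays, with a difference of -0.03, and 91.2% of bright genes differed by more. The sign of Araf is not settled, since it stood at 0.02 with arrays centred on their medians, at 0.03 after quantile normalization and at 0.03 with a loess trend subtracted. Braf, which encodes the RAF kinase of highest basal activity, was measured on 1425693_at at 8.24 in control and 8.02 in overexpressing cells. It was lower in the overexpressing cells by 0.22 on the log2 scale, or 0.858-fold, the largest difference of the 5 representative probe sets. Of all bright genes, 43.8% differed by more than Braf. Of 9 alternatives run for single genes, 5 could not move a gene with 1 probe set well above the floor, and under the other 4, which are 3 scalings and a pseudocount, Braf stood between -0.20 and -0.15. It is also the member closest to the array median, 0.29 above it in control and 0.12 above it in overexpressing cells. When bright genes were divided by mean signal into 5 groups of equal size, Araf and Braf fell in the dimmest, where the SD of the differences over 1122 genes was 0.58 and 65.1% differed by more than Braf did.

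The MEK tier holds the kinases that phosphorylate ERK and are the targets of MEK inhibitors. Map2k1, which encodes MEK1, was measured on 1416351_at at 11.35 in control and 11.46 in overexpressing cells. It was slightly higher, by 0.10 or 1.07-fold, and 69.5% of bright genes differed by more. Map2k2, which encodes MEK2, was measured on 1415974_at at 10.53 in control and 10.58 in overexpressing cells. Its difference of 0.05, or 1.04-fold, was also on the higher side, and 85.2% of bright genes differed by more. Under the same 4 alternatives that could move them, Map2k1 stood between 0.09 and 0.16 and Map2k2 between 0.04 and 0.11. Differences were narrower at the signals of the MEK genes than at those of the RAF genes. The SD of the differences was 0.34 in the middle of the 5 signal groups, where Map2k2 lay, and 0.33 in the next brighter one, where Map2k1 and both Nras probe sets lay.

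**Figure D2:**
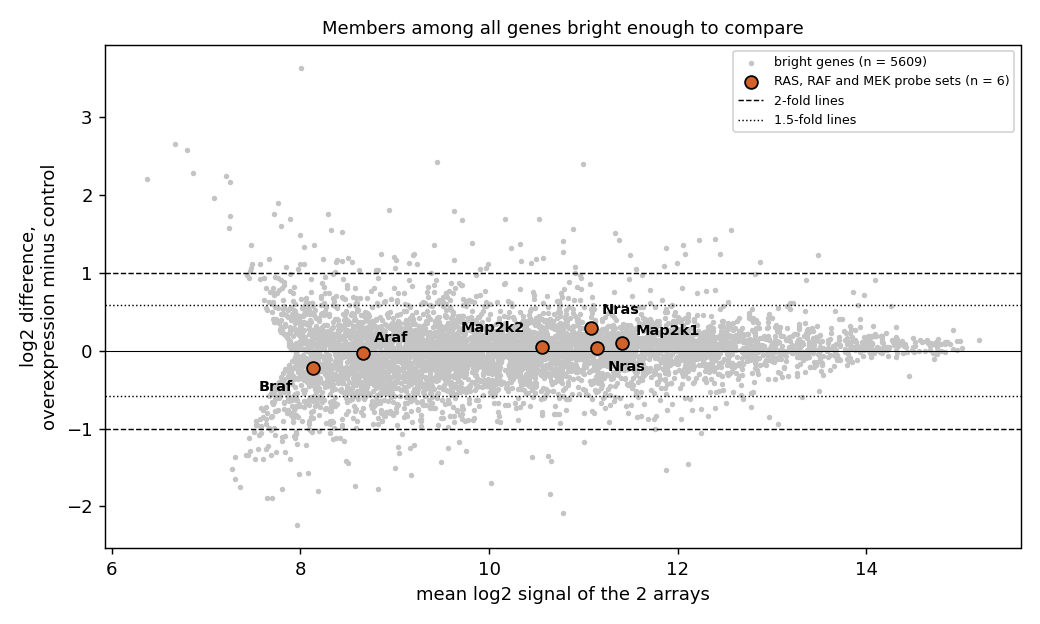
Log2 difference, overexpression minus control (y axis), against the mean log2 signal of the 2 arrays (x axis) for 5609 bright genes (grey) and the 6 probe sets of the cascade genes (orange). Dashed lines mark 2-fold and dotted lines 1.5-fold; all 6 probe sets lie between the dotted lines, from -0.22 for Braf to 0.28 for the second Nras probe set, and the grey cloud is widest at low signal.

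Which paralogue dominates a tier cannot be read from these signals, because probe sets bind with different strength and the signal of one gene is not comparable with that of another. A change in the balance of a pair between the arrays can be read, since the strength of binding of each probe set is shared by both arrays. In the MEK tier the log2 difference of Map2k1 exceeded that of Map2k2 by 0.05, a shift of the pair's ratio of 1.04-fold. In the RAF tier the log2 difference of Araf exceeded that of Braf by 0.19, a shift of 1.14-fold toward Araf. Both shifts were smaller than the gap of 0.25 between the Nras probe sets, which report on 1 gene, and than the SD of 0.33 for the difference between 2 bright probe sets of a gene. No shift in paralogue balance larger than the disagreement between probe sets was therefore measured in either tier. The balance of the RAS tier could not be examined with Nras alone.

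**Figure D3:**
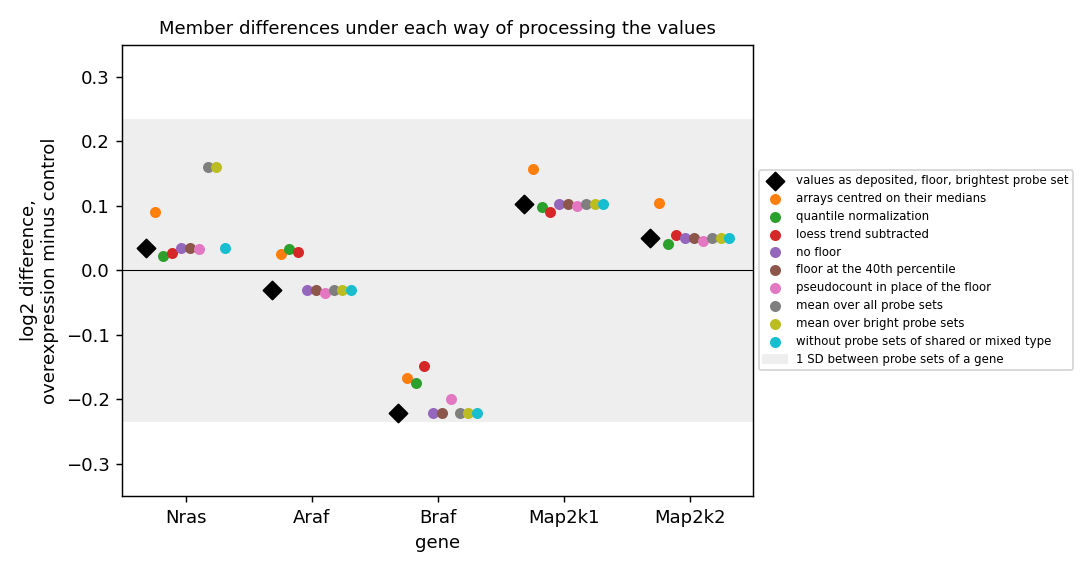
Log2 difference, overexpression minus control (y axis), of each measured cascade gene (x axis) with the values as deposited (black diamonds) and under 9 alternative ways of processing (coloured points); the grey band is 1 SD, 0.23, between probe sets of a gene. For the genes with 1 probe set, 5 of the 9 repeat the main value by construction. Every point lies inside the band, Araf lies on both sides of 0, and Nras reaches 0.16 where its probe sets are averaged. The second Nras probe set alone, at 0.28, is not drawn and would lie outside the band. The band has 1 width at every signal, though the SD was 0.30 in the dimmest group of genes and 0.17 in the brightest.

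The measured genes lie on 5 chromosomes, and none of them is in the stretches of chromosomes 14 and 6 where neighbouring genes differed together. The bounds of these stretches came from earlier results of these same data, so their medians only describe them. The chromosome 6 stretch, from Rad18 to Resf1, held 97 bright genes with a median difference of 0.37. Braf is on chromosome 6, among the 178 bright genes before the differing stretch, whose median difference was 0.02. In the gene order of assembly GRCm38.p6, the 5 bright genes on either side of Braf had a median of 0.05, and 8 of these 10 lay above Braf. The 10 bright neighbours of Map2k1 on chromosome 9 had a median of -0.18, those of Nras on chromosome 3 of 0.07, those of Map2k2 on chromosome 10 of 0.07 and those of Araf on the X chromosome of -0.09. Each member lay within the range of its own neighbours, which for Braf ran from -0.52 to 1.08 and for Map2k1 from -0.90 to 0.26.

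The promoters of Braf and Map2k1 are shown, the members at the ends of the range of differences of the representative probe sets. The second Nras probe set, at 0.28, lay above Map2k1. The letters run from 250 bases before to 50 after each gene's start, credited to RefSeq, assembly GRCm38.p6. Both genes are on the minus strand, Braf at chr6:39725414-39725713 and Map2k1 at chr9:64253556-64253855. Capitals mark the GC box GGGCGG, the CCAAT box CCAAT and the cAMP response element TGACGTCA, each on either strand, with no overlaps among them in these windows.
Braf: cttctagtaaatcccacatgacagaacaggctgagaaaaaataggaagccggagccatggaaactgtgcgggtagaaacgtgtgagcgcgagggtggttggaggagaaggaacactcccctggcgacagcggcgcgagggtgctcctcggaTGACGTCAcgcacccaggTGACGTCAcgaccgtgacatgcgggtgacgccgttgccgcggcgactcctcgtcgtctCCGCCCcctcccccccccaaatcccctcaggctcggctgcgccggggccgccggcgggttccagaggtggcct
Map2k1: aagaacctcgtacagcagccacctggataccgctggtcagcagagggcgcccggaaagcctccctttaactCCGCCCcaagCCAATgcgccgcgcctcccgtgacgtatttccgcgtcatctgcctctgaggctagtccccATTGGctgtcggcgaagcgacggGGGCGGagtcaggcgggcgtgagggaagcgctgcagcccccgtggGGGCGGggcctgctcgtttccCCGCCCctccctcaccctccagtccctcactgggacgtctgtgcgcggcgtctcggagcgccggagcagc
The Braf window holds 2 copies of TGACGTCA, the palindrome known as the site of the CREB and ATF factors, and 1 GC box. At least 1 copy of TGACGTCA was found in 1.79% of 32851 promoters of the same length and in 3.23% of the 6008 promoters of bright genes, and at least 2 copies in 13 and 3 of them. The Map2k1 window holds 4 GC boxes and 2 CCAAT boxes. A GC box was found in 35.7% of all promoters and in 65.5% of those of bright genes, and a CCAAT box in 37.4% and 38.1%. Of the other measured members, the Map2k2 window holds 2 GC boxes and that of Nras 3, while the Araf window holds none and has 3 CCAAT boxes. None of the 5 windows holds the letters TATAAA, found in 13.6% of all promoters and in 6.97% of those of bright genes. CpG dinucleotides numbered 31 in the Map2k1 window, 30 in Braf, 28 in Map2k2, 19 in Nras and 14 in Araf, against medians of 7 over all promoters and 22 over those of bright genes. These letters are a description of the windows, and binding was not measured.

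Around the cascade, 99 further genes of RAS and MAP kinase signalling were listed with earlier results of these data known, and 56 of the 72 measured were bright. Of these, 21 were higher and 35 lower, with a median of -0.08. Over all bright genes 50.2% were higher and 49.8% lower, the shares to set beside each split given below. For the wider list the split was 19 and 37 after quantile normalization and 20 and 36 with a loess trend subtracted. It was 26 and 30 with arrays centred on their medians, which raised the median of all bright genes to 0.06. A 2-fold difference was seen in 2 of them, or 3.57% against 2.83% of all bright genes, and a 1.5-fold difference in 7, or 12.5% against 11.3%. The wider list was thus near the background in how many of its genes passed each threshold, while more of its genes were lower than higher.

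Closest to Nras by family, all 11 measured RAS relatives were bright, 3 higher and 8 lower, with a median of -0.23. Rap2a differed most, from 8.21 in control to 7.56 with lincU, which is -0.65 as a difference. A dim second probe set of Rap2a differed by 0.04. The gene lies in a part of chromosome 14 where 137 bright genes, Rap2a among them, had a median of -0.59. Rheb, the GTPase that activates mTORC1, differed by -0.40 on its single probe set, and Rap2c by -0.45 and 0.06 on its bright probe sets. Upstream of RAS, 5 of 10 measured exchange factors and adaptors were bright, 1 higher and 4 lower. Rasgrp2, an exchange factor gene that acts mainly on RAP1, differed by -1.36 and -1.44 on 2 probe sets and by -0.18 on the third, all bright. Ptpn11, which encodes the phosphatase SHP2, differed by -0.42 on its bright probe set and by -0.97 on a dim one. The adaptor gene Gab1 differed by -0.29, with its other probe sets at -0.23 and 0.09. Of the 5 bright RAS GTPase-activating protein genes 2 were higher and 3 lower, a split turned to 3 and 2 by all 3 scaling alternatives, with Rasa3 at 0.37 and Rasa1 at -0.24, -0.04 and 0.07 on its 3 probe sets. Genes of RAS processing and turnover, among them enzymes, an accessory subunit and a carrier of its lipid anchor, had 8 bright members, 3 higher and 5 lower, with Lypla1, a depalmitoylating thioesterase gene, at 0.32 and the methyltransferase gene Icmt at -0.22.

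Downstream and beside the MEK genes, 13 of 14 measured scaffolds and modulators were bright, 5 higher and 8 lower, with a median of -0.02, and with splits of 3 and 10 after quantile normalization, 4 and 9 with a loess trend subtracted, and 9 and 4 with arrays centred on their medians. Lamtor2, a subunit of the endosomal complex that carries the MEK1 scaffold, differed by 0.76 on its bright probe set and by -0.67 on a dim one. Pea15a, which encodes a protein that binds ERK and holds it in the cytoplasm, differed by -0.74 on its brighter probe set and by -0.14 on the other. Of 3 measured ERK substrate kinases 2 were bright and both lower, Rps6ka3 at -0.42 and Mknk2 at -0.31. No test of the cascade genes against these lists was made. The members' range on representative probe sets, -0.22 to 0.10, overlapped that of every list with bright genes except the ERK substrate kinases.

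**Figure D4:**
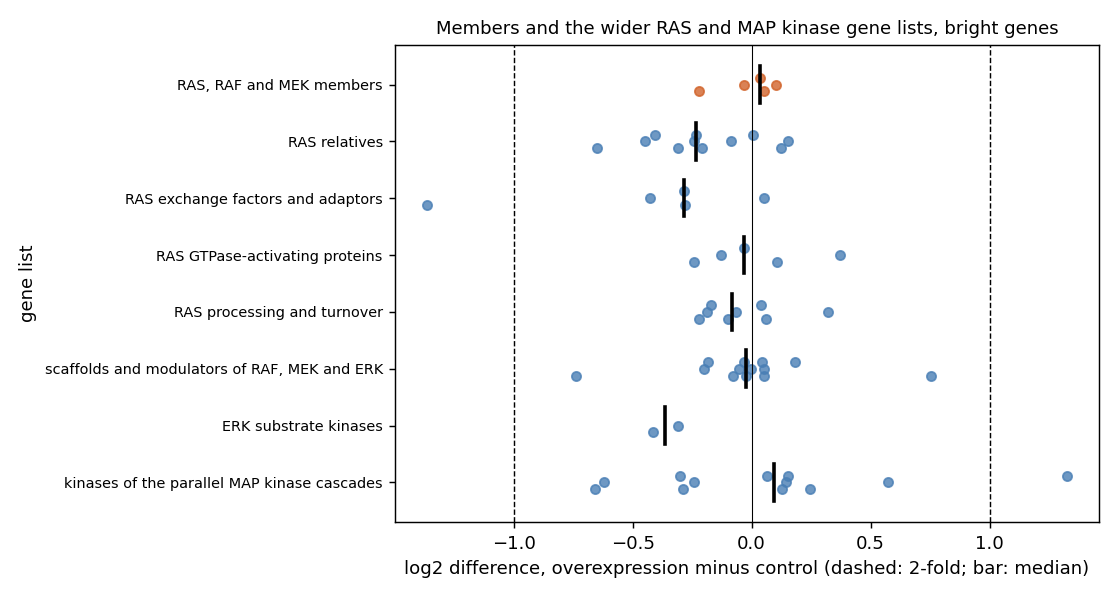
Log2 difference, overexpression minus control (x axis), of the bright genes of each list (y axis), 1 point per gene, for the 5 measured cascade genes (orange) and 7 wider lists (blue). Black bars are medians and dashed lines mark 2-fold; the cascade genes lie between -0.22 and 0.10, and the points past 2-fold are Rasgrp2 at -1.36 and Mapk8 at 1.32.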

How the data were processed

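RNA of 1 control and 1 lincU-overexpressing culture was labelled by in vitro transcription from the 3' end and hybridised to 1 array each, per the labels' protocols. The table as deposited holds log2 signals, 1 per probe set and culture, a scale read from maxima of 15.13 and 15.26. MAS5 and affy are named, without version or role, in the submitters' processing notes, with the scaling target not given in the sources used here.

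Of 16994 probe sets, 15273 had a single gene name in the platform annotation, 15252 of them matched by gene ID to the RefSeq table of assembly GRCm38.p6. Of the rest, 501 had several names, 1156 none and 64 were controls. Values were compared without further scaling. Those under an array's 25th percentile, 5.73 in control and 5.65 in overexpression, were raised to it, and a gene under it on both arrays was given a difference of 0. All cascade probe sets were at least 2.37 above it. The members and lists were chosen with earlier results of these data known. All members were described with every probe set. In each wider list up to 3 bright genes of largest difference could be named. With 1 array per group there is no test, error or p-value, and precision is limited by the number of arrays. The counting rule was tested on simulated data, with noise narrower than the spread of the real differences. Effects were planted only in genes well above the array medians, so the simulation does not cover genes as dim as Araf and Braf. Python 3.11.15, pandas 2.3.3 and statsmodels 0.14.6 (loess fraction 0.3) were used.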

Additional observations from a re-analysis of the deposited data

How the results depend on the processing

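Of 171 values recomputed under 12 alternatives, 75 equalled the main value, many because the setting could not move them, and 10 moved by more than 0.23, the SD between a gene's probe sets, or, for counts, by over 1.5 times. That margin is wider than each cascade gene's own difference, so it does not bear on their signs. No cascade gene passed 2-fold under any alternative, or 1.5-fold as the threshold. The count of lower cascade genes went from 2 to 1 with arrays centred on their medians, with quantile normalization and with a loess trend subtracted, all through Araf. The exchange factors and adaptors had a median of -0.29, and of -0.53 with the mean over all probe sets. Over all bright genes 86 were at least 2-fold higher and 73 lower. These counts were 261 and 375 at 1.5-fold, 153 and 226 with no brightness rule, and 37 and 15 with brightness at the 75th percentile. No paired analysis was possible because each group had 1 array. Variation between cultures was not measured, and Braf had the least signal above the floor of the cascade genes, 2.51 and 2.37, with its own precision not measured.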

Other observations

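The parallel MAP kinase cascades, which carry stress signals to JNK and p38 and growth factor signals to ERK5, had 17 of 20 listed genes measured and 12 bright, 7 higher and 5 lower, with a median log2 difference of 0.10. Mapk8, which encodes the kinase JNK1, was the only bright gene of the wider lists at least 2-fold higher, from 9.58 in control to 10.90 in overexpressing cells, or 2.50-fold. Its 3 probe sets, all bright, differed by 1.23, 1.32 and 1.35. It lies among 70 bright genes of chromosome 14 with a median of 1.08. Map2k4, which encodes a MEK relative that phosphorylates JNK, differed by -0.66, and Map2k5, which encodes the kinase of ERK5, by -0.62. The other bright MEK relatives of the list, Map2k6 at 0.57 and Map2k3 at 0.15, named after their values were seen, went the other way. The contrast with Map2k1 at 0.10 and Map2k2 at 0.05 was not tested.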
